A study of Mus musculus with 6 samples.

Results

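Nephronectin and the integrin chains of the mouse fetal gut are described here from 10 genes: Npnt, which encodes nephronectin, and the integrin chains Itga1, Itga4, Itga5, Itga8, Itga9, Itgav, Itgb1, Itgb5 and Itgb8. They are 10 of the 24568 genes of the deposited count matrix, and each was found there by its symbol. The genes were selected on their summed levels in 6 sets of cells, and Npnt, Itga8 and Itgb1 also on how they coincide in single cells, so the differences between those sets are given as a description with no test. Small intestines came from Pdgfra-H2BGFP embryos of the C57/BL6 strain, in which nuclear GFP reports Pdgfra. One experiment pooled embryonic ages E15.5 and E16.5 and the other pooled E13.5, E14.5 and E18.5, after the gut had been cut along its length and each piece tagged with a lipid-anchored oligo (MULTI-seq). Each experiment gave 2 wells of live cells negative for the red cell marker Ter119 and 1 well enriched for cells that were GFP-high for Pdgfra or positive for Epcam, CD31 or CD45. All 6 samples carry the reporter, and there is no group without it. The replicate embryos of an age, 2 to 4 of them, were pooled, and no source used here ties a cell to an embryo, an age or a gut segment.

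Nephronectin is an extracellular matrix protein of basement membranes, with EGF-like repeats, an Arg-Gly-Asp (RGD) motif and a MAM domain. Integrins are heterodimers of an alpha and a beta chain that link the matrix to actin, and the pair of Itga8 and Itgb1 products, integrin α8β1, is the best known receptor of nephronectin. That ligand and receptor pair is needed for kidney outgrowth and for the anchoring of smooth muscle to hair follicles. In the fetal gut, cells with high Pdgfra gather under the epithelium at the sites where villi form.

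The short stretch that connects these genes is the RGD codon triplet, so it is printed for nephronectin and for 5 of the listed ligands whose levels are compared below. Fbn1, Emilin1 and Thbs1 also hold a site and were measured in both comparisons below, and are not shown. Each line gives 45 coding bases from the GENCODE M21 transcript with the longest complete coding sequence, 5′ to 3′, with the 9 bases for Arg, Gly and Asp in capitals.
Npnt: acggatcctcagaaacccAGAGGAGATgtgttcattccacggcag
Fn1: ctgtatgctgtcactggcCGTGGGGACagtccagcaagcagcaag
Fbln5: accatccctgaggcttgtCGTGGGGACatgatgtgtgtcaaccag
Mfge8: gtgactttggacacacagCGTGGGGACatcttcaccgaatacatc
Tgfb1: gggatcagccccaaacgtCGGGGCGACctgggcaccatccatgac
Tgfb3: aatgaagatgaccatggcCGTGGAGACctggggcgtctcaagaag
The Npnt triplet is codon 430 of 609 and lies in exon 10 of 14, at chr3:132904665-132904673 on the minus strand of GRCm38. The Fn1 site shown is codon 1614 of 2477, at chr1:71606746-71606754 in exon 30 of 46, and Fn1 has another at codon 2181. Fbln5 has its site at chr12:101809927-101809935 (exon 4), Mfge8 at chr7:79145308-79145316 (exon 3), Tgfb1 at chr7:25697142-25697150 (exon 5) and Tgfb3 at chr12:86062165-86062173 (exon 5). The search took 6 patterns on the coding strand and in frame (CGNGGNGAC, CGNGGNGAT, AGAGGNGAC, AGAGGNGAT, AGGGGNGAC and AGGGGNGAT), which do not overlap one another. Of 21504 genes with a complete coding sequence, 1562 (7.26%) held at least 1 match, against 13 of the 21 integrin ligands listed for comparison. The 21 were picked as integrin ligands, so nothing is read from that contrast. The receptor chain genes Itga8 and Itga9 also held 1 match each. A match describes the sequence and says nothing of binding.

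On GRCm38, RefSeq places Npnt at chr3:132881745-132950291, Itga8 at chr2:12106632-12301985 and Itgb1 at chr8:128685654-128733579. Itga1 lies at chr13:114958079-115101964, Itga4 at chr2:79255426-79333114, Itga5 at chr15:103344286-103366791 and Itga9 at chr9:118606709-118901003. Itgav lies at chr2:83722303-83806917, Itgb5 at chr16:33829665-33949338 and Itgb8 at chr12:119162803-119238276. The chains are long proteins, from 767 codons for Itgb8 to 1179 for Itga1, whereas the kit read transcripts at their 3′ ends, so isoforms could not be told apart.

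The matrix pools the samples. Its barcodes carry 6 suffixes in 2 endings, here called A1, A2 and A3 and B1, B2 and B3, and no label ties a suffix to a sample. Of 13127 cells, 12630 were kept, from 1177 in A3 to 2514 in B2. Median unique molecular identifiers (UMIs, 1 per captured molecule) per cell were 7070 to 13574 in ending A and 3548 to 4182 in ending B, so the endings were never summed. Between sets, 22 cell barcodes were shared. A3 and B3 stood apart: summed over 9 markers of PDGFRA-high mesenchyme they held 3331 and 2863 UMIs per 1000000 (CPM), against 761 to 1128 CPM in the other sets. Of 7 general mesenchyme markers, 6 or 7 were above 100 CPM in every set. Their sum was lower in A3 and B3, at 4698 and 3816 CPM, against 6771 to 7353 CPM in the other sets. By a marker rule applied within sets, no cluster took an epithelial, endothelial or myeloid name, although the labelled enrichment includes such cells. Immune genes did lead a pair of clusters. In ending A they were Cd74, H2-Aa, Cd52, C1qc, C1qa and Tyrobp, in a cluster of 148 cells, 82 of them from A3, that stayed unnamed, with Npnt at 13.8 CPM. In ending B, Alox5ap, Srgn, Lyz2 and Laptm5 were among the leading genes of a cluster of 246 cells that counts as other mesenchyme, with Npnt at 8.65 CPM. The 7 epithelial markers summed to 364 CPM in A3 and 115 CPM in B3 against 42.9 to 52.0 CPM elsewhere, and none was at 0 in any set. Epcam had a UMI in 48.0% of A3 cells and 9.87% of B3 cells, against 15.2% to 16.9% in A1 and A2 and 5.07% to 6.05% in B1 and B2. Endothelial and myeloid markers each summed to 50.8 to 97.0 CPM in A3 and B3 and to at most 30.1 CPM elsewhere. Red cell markers summed to 1789 to 3711 CPM in ending B and to 25.3 to 36.2 CPM in ending A. Their part in the results was not tested.

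Npnt was the member that differed most between sets. Its level was 12.4 CPM in A1, 12.2 CPM in A2 and 457 CPM in A3. In ending B it was 23.8 CPM in B1, 30.0 CPM in B2 and 206 CPM in B3. Set 3 was thus high in both endings, with no overlap of counting intervals, and the 2 remaining sets of an ending lay close together. The ratio of set 3 to sets 1 and 2 was 37.1-fold in A (log2 5.21, 95% interval 5.10 to 5.33) and 7.59-fold in B (log2 2.92, 2.79 to 3.06). Intervals here cover counting error only, since cells of a pooled matrix are not replicates. By ratio, Npnt ranked 18 of 7417 genes in A and 11 of 6410 in B. A set's CPM mixes the share of cells that express a gene with the level in each: Npnt had a UMI in 57.9% of A3 cells against 7.65% and 7.39% in A1 and A2. With each cell thinned to 2000 UMIs those shares were 42.7%, 1.91% and 1.97%, and in B3, B1 and B2 they were 27.8%, 4.60% and 5.27%.

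Itga8, the alpha chain of the nephronectin receptor, went the other way. Its level was 36.5 CPM in A1, 36.9 CPM in A2 and 23.4 CPM in A3. The sets of ending B held 10.3, 12.3 and 5.00 CPM in the same order. Set 3 was the low one in both endings, at log2 -0.65 (-0.86 to -0.45) in A and -1.18 (-1.70 to -0.70) in B. The B3 value rests on 41 UMIs, and neither side of that comparison reaches 20 CPM. After thinning, Itga8 had a UMI in 6.47%, 7.88% and 3.58% of cells in A1, A2 and A3 and in 1.69%, 2.48% and 0.96% in B1, B2 and B3.

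Itgb1, the common beta chain that pairs with α1, α4, α5, α8, α9 and αv among the members, was the most abundant of the 10 in every set. It stood at 689, 623 and 967 CPM in A1, A2 and A3, and at 635, 638 and 679 CPM in B1, B2 and B3. At least 1 UMI was found in 99.5% or more of the cells of each set of ending A and in 89.1% to 91.1% in ending B. Set 3 was 1.47-fold higher in A (log2 0.56, 0.52 to 0.59) and 1.07-fold in B (log2 0.09, 0.05 to 0.14).

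Of the alpha chains with collagen as ligand, Itga1 was the member. It was at 50.1, 46.5 and 189 CPM in A1, A2 and A3, and at 54.3, 53.7 and 140.1 CPM in B1, B2 and B3. Set 3 was high in both endings, 3.90-fold in A and 2.59-fold in B.

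Itgav, Itgb8, Itgb5 and Itga5 make RGD receptors other than α8β1. Itgav, the alpha chain that pairs with several betas, was at 47.5, 46.1 and 84.8 CPM in A1, A2 and A3 and at 44.4, 52.9 and 81.9 CPM in B1, B2 and B3, which is 1.81-fold and 1.68-fold. Itgb8, whose dimer with αv binds the latent form of TGF-beta, was at 14.2, 12.8 and 50.2 CPM in A1, A2 and A3. In B1, B2 and B3 it was at 13.1, 14.3 and 41.2 CPM, so that set 3 was 3.70-fold higher in A and 3.01-fold in B. Itgb5, a beta partner of αv, ranged only from 42.0 to 57.7 CPM over the 6 sets. Itga5, the fibronectin receptor chain, was at 46.5, 44.0 and 44.0 CPM in A1, A2 and A3 and at 28.6, 26.9 and 40.6 CPM in B1, B2 and B3. Its sets overlapped in A, and B3 lay 1.47-fold above the remaining sets of B.

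Itga9 and Itga4 encode the related alpha chains of receptors for tenascin, osteopontin and VCAM-1. Itga9 was at 40.3, 41.7 and 68.2 CPM in A1, A2 and A3 and at 27.5, 31.1 and 42.2 CPM in B1, B2 and B3, which is 1.66-fold and 1.44-fold higher in set 3. Itga4 was the lowest member in every set, with 5.86, 5.81 and 9.47 CPM in A and 3.09, 2.95 and 3.90 CPM in B. Intervals of the 3 sets overlapped in B, where each rests on 31 to 33 UMIs.

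**Figure D1:**
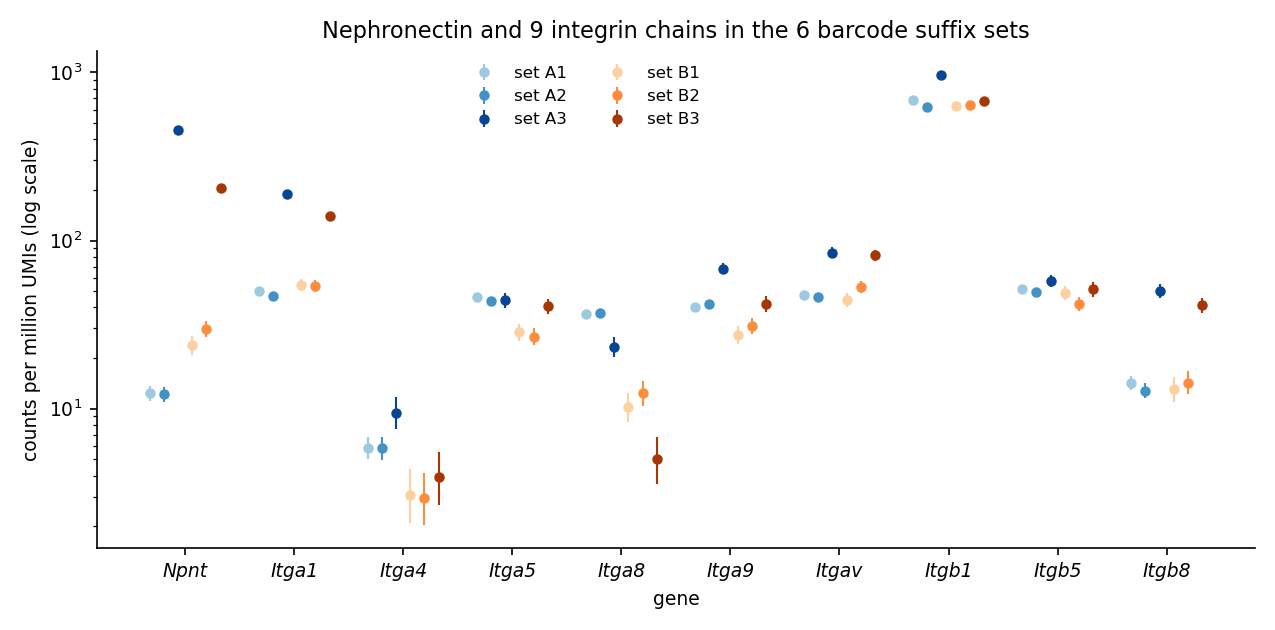
Level in CPM (log scale) of each of the 10 genes in the 6 sets, with bars for the 95% Poisson interval. Npnt is at 12.2 to 30.0 CPM in sets 1 and 2 of both endings and at 457 and 206 CPM in A3 and B3, whereas Itga8 is lowest in set 3 of each ending.

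The order of levels changed with the set. The kit counts 1 UMI per molecule, so CPM can be ranked across genes with no length term. In A1 and A2, Itgb1 was followed by Itgb5, Itga1, Itgav and Itga5, all within 44.0 to 51.8 CPM and with overlapping intervals from each to the next, and Npnt was ninth of the members. In A3 and B3, Npnt was second after Itgb1, above Itga1 and Itgav, with none of these neighbours overlapping. In B1 and B2, Npnt was seventh and sixth, with intervals that overlapped those of Itga9. Itga8 was seventh in A1 and A2 and ninth in every remaining set.

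At a 2-fold threshold on genes with at least 20 CPM on 1 side, Npnt, Itga1 and Itgb8 were higher in set 3, which is 3 of 9 members tested in A and 3 of 8 in B. The background shares were 9.64% of 7417 genes in A and 8.64% of 6410 genes in B. None was past 2-fold lower, against 5.65% of genes in A and 5.38% in B, and Itga8 in B, at 2.27-fold lower, was under the level set for testing. The members nearest the threshold were Itgav outside it, at 1.81-fold in A and 1.68-fold in B, and Itga1 inside it, at 2.59-fold in B. The median log2 ratio of the 10 members was 0.72 in A and 0.54 in B, against -0.05 and 0.12 over all genes tested. Since the members were selected on this contrast, nothing is read from these counts.

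**Figure D2:**
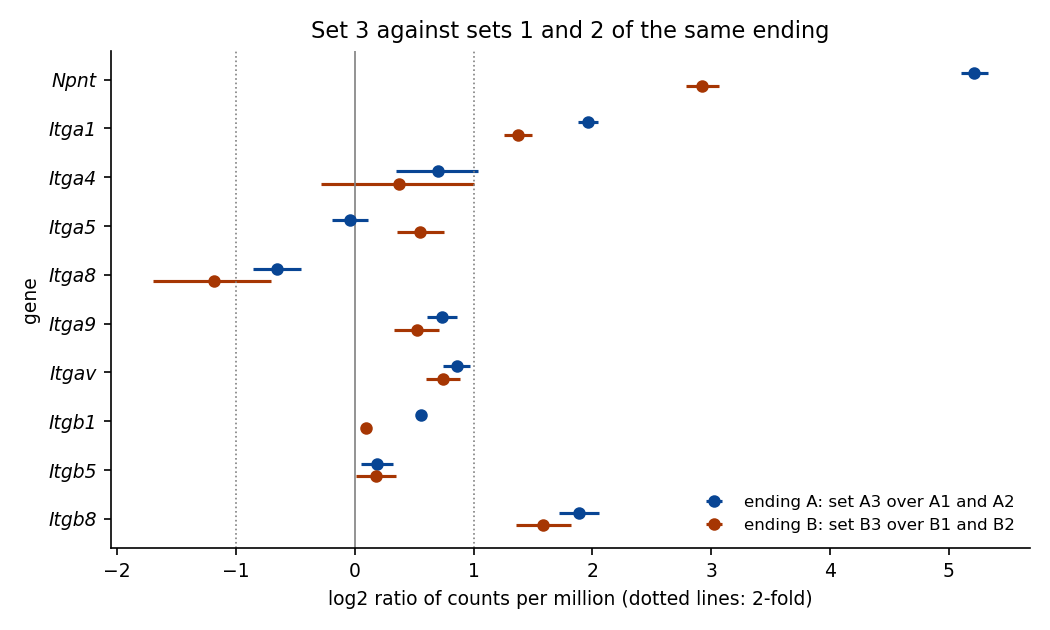
Log2 ratio of CPM in set 3 over sets 1 and 2 of the same ending, with 95% counting intervals, for the 10 members. Npnt lies at 5.21 and 2.92, Itga1 and Itgb8 are right of the dotted 2-fold line in both endings, and Itga8 is the one member below 0 in both.

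The matrix holds 17 other integrin chains, and 15 of them stayed under 20 CPM on both sides of the comparison in each ending. The 2 that were measured, Itga2 and Itga11, both encode collagen-binding partners of β1, as Itga1 does. Itga2 was at 154 CPM in A3 against 11.1 CPM in A1 and A2, and at 119.6 CPM in B3 against 26.1 CPM in B1 and B2, or 13.9-fold and 4.58-fold. Itga11 was at 37.9 against 7.33 CPM in A and at 38.2 against 15.96 CPM in B, or 5.17-fold and 2.39-fold. The background shares of genes this far higher are the 9.64% and 8.64% given above. Itga11 in both endings and Itga2 in A reached 20 CPM only in set 3, the side where they were high. Nothing is read from the count of these chains.

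Of 21 listed ligands, 14 could be tested in A and 12 in B. In A3, 3 were higher, namely Tnc (133 against 13.0 CPM), Tgfb1 (62.4 against 10.4 CPM) and Tgfb3 (51.2 against 12.5 CPM), and 3 were lower, namely Fbln5, Edil3 and Vcam1. In B3, Tgfb1 (59.1 against 16.7 CPM) and Tgfb3 (54.4 against 16.7 CPM) were higher, and Fbln5, Fbn1, Vcam1, Cyr61, Ctgf and Postn were lower. Over all genes tested, 9.64% were past 2-fold higher and 5.65% lower in A3, and 8.64% and 5.38% in B3. Each ligand called higher reached 20 CPM only in set 3. Fbln5 and Vcam1 in both endings, Edil3 in A and Ctgf in B reached it only in sets 1 and 2. Nothing is read from the ligand counts. Tnc in B, at 9.27 against 3.77 CPM, was under the level set for testing. Tgfb1 and Tgfb3 encode the latent growth factors whose RGD sites, printed above, are bound by integrins with αv. Tnc encodes tenascin-C, which the α8 and α9 chains can bind, and its longest coding sequence held no RGD triplet by this search. The elastic fibre protein gene Fbln5 was at 10.2 CPM in A3 against 37.1 CPM in A1 and A2, and at 4.63 CPM in B3 against 40.8 CPM in B1 and B2. Vcam1, encoding a ligand of α4β1 and α9β1, was at 3.66 against 32.5 CPM in A and at 2.56 against 21.1 CPM in B. Fn1 and Mfge8 were near level, Fn1 at 262 against 308 CPM in A and 188 against 196 CPM in B. Egfl6 and Vtn, whose products also carry RGD, were under 1 CPM on both sides of both comparisons, and Spp1 reached 6.35 CPM in A3 at most. The ligands' median log2 ratio was -0.16 in A and -0.87 in B.

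Of 26 adhesion adaptors, which couple integrin tails to actin, 21 were tested in A and 22 in B. Only Pxn, encoding paxillin, passed 2-fold in A (39.5 against 16.1 CPM), and Pxn and Bcar1 passed it in B, both higher in set 3. None passed it downward. Over all genes tested, 9.64% were past 2-fold higher and 5.65% lower in A, and 8.64% and 5.38% in B. Nothing is read from the adaptor counts. Lpp and Vcl were just short of it in B, at 1.95-fold and 1.93-fold. The adaptors' median was 0.35 in A and 0.27 in B.

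Cells were then clustered within each ending without the members and the listed pathway genes, and clusters were named by markers. The PDGFRA-high class held 1120 cells in A, of which 1027 were from A3, and 2740 in B, of which 1973 were from B3. It made up 87.3% of A3 and 90.1% of B3 against 2.16% and 1.92% of A1 and A2 and 15.2% and 17.2% of B1 and B2. Other mesenchyme held 4008 and 4135 cells, and 591 and 36 cells stayed unnamed. Npnt was at 553 CPM in the PDGFRA-high class of A against 6.67 CPM in other mesenchyme (log2 6.37, 6.22 to 6.53). In B it was at 216 against 7.63 CPM (log2 4.82, 4.58 to 5.07), and with finer clusters (Leiden resolution 2) the log2 ratio in B was 3.38 (3.24 to 3.52). Within single sets the log2 ratio was 5.94, 6.22 and 4.47 in A1 to A3 and 4.80, 4.83 and 2.81 in B1 to B3, all in the same direction. It was smallest in set 3 of each ending, where the other mesenchyme gave 25.6 and 33.3 CPM instead of 5.75 to 6.44 CPM.

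Within the PDGFRA-high class, Npnt was concentrated in 1 of 3 clusters in each ending. That cluster was led by Slco2a1 (a prostaglandin transporter gene), AW112010, Htra1 and Glp2r, held 715 cells in A and 1139 in B, and is called the Slco2a1 cluster. Npnt was at 948 CPM there against 25.9 CPM in the 405 remaining PDGFRA-high cells of A, which is 36.6-fold (log2 5.19, 4.89 to 5.51). In B it was at 458 against 57.1 CPM, or 8.02-fold (log2 3.00, 2.83 to 3.18). The remaining PDGFRA-high clusters, led by Aplnr and by Calb1 in A and by Calb1 and by Kcnk13 in B, ranged from 25.4 to 80.4 CPM. Npnt was among the first 2 genes of the Slco2a1 cluster by fold although it had not been used in clustering, but genes that vary with it had been, so this is a description.

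The level in the Slco2a1 cluster was much the same in every set. In A it was 1061 CPM in 23 cells of A1, 1006 CPM in 23 cells of A2 and 942 CPM in 669 cells of A3. In B it was 436 CPM in 91 cells of B1, 484 CPM in 139 cells of B2 and 456 CPM in 909 cells of B3. The intervals of the 3 sets overlapped in both endings. Outside the cluster the level was not the same in every set, as the values for other mesenchyme above show, and in B the Kcnk13 cluster had 34.1 CPM in B3 against 17.7 and 17.2 CPM in B1 and B2, with overlapping intervals. In A1, the 23 cells were 0.935% of the set and held 45.7% of its Npnt UMIs, and in A3 the 669 cells were 56.8% of the set and held 96.5%.

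In set A3 the thinned share of cells with Npnt was 70.8% in the Slco2a1 cluster and 5.62% in the remaining PDGFRA-high cells. In the same cells the epithelial gene Epcam had a UMI in 21.6% and 15.2%, and Krt8 in 18.3% and 13.8%. In B3, Npnt was found in 53.2% and 10.0%, and Epcam in 6.32% and 4.82%. Krt8 went the other way in B3, at 3.77% and 4.44%. The gap between these groups of cells was wider for Npnt than for Epcam in both sets, and the reason was not tested. In the remaining PDGFRA-high cells the Npnt share was below that of Epcam in A3, and it is not read as expression there. It was above that of Epcam in B3. The epithelial markers summed to 409 CPM in the whole Slco2a1 cluster of A, with none at 0. All 7 were at least 4-fold above the remaining cells of ending A, and 0 were when compared within the same sets. Their part in the Npnt level was not tested. Npnt was as high in the cells of the Slco2a1 cluster from A1 and A2, for which the Epcam share is not given.

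**Figure D3:**
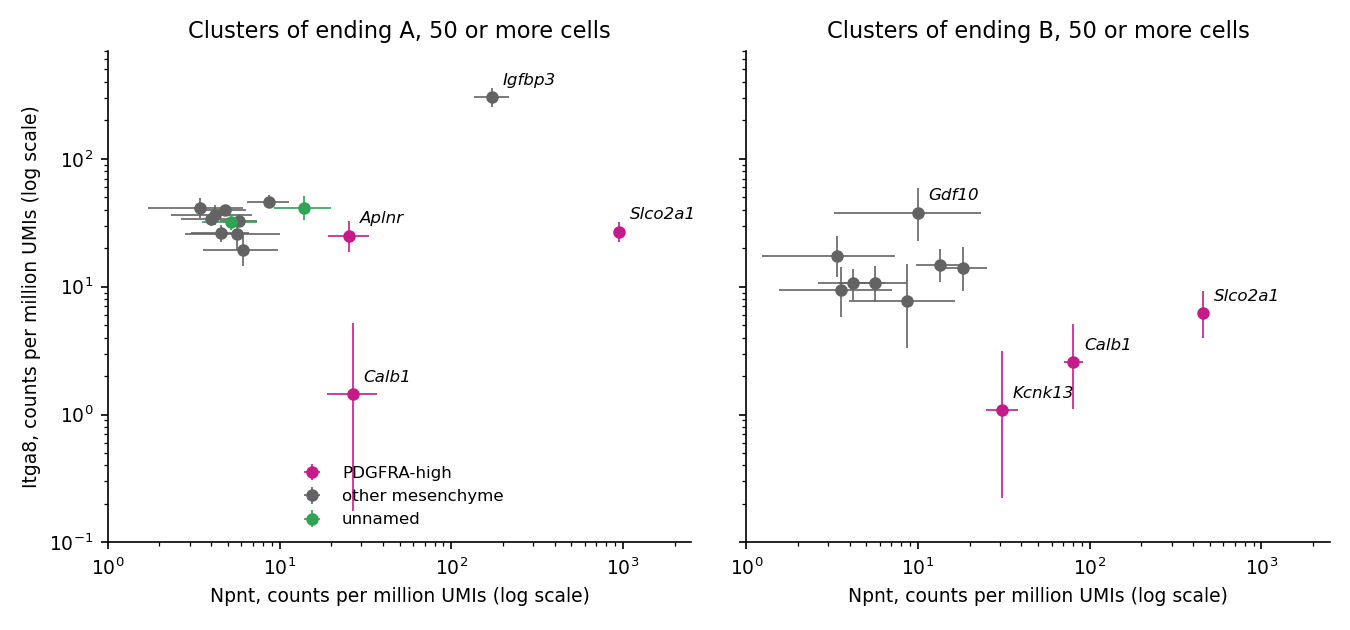
Npnt (horizontal) and Itga8 (vertical) in CPM, both on log scales, for each cluster of at least 50 cells, with 95% Poisson intervals; colours give the class and some clusters carry the name of a leading gene. The Slco2a1 clusters lie far right at 948 and 458 CPM of Npnt, and the Igfbp3 cluster of ending A is highest in Itga8, at 302 CPM.

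Itga8 was spread over the mesenchyme. It was at 36.8 CPM in other mesenchyme of A against 22.1 CPM in the PDGFRA-high class (log2 of the latter over the former -0.74, -0.97 to -0.52), and at 12.7 against 3.59 CPM in B (log2 -1.82, -2.38 to -1.31). Within sets the direction held in A3 (-1.85) and in B1, B2 and B3 (-2.75, -1.34 and -2.03). It did not hold in A1 (-0.04, -0.85 to 0.67) or in A2 (1.02, 0.43 to 1.56), where the class was 40 cells with 28 Itga8 UMIs. Inside the PDGFRA-high class of A, Itga8 was at 26.9 CPM (22.4 to 32.0) in the Slco2a1 cluster, 24.9 CPM (18.7 to 32.6) in the Aplnr cluster and 1.44 CPM in the Calb1 cluster, where 201 cells held 2 UMIs. The first and second of these overlapped, and in A3 alone they were at 20.7 and 24.9 CPM. In B the Slco2a1 cluster was at 6.20 CPM against 1.87 CPM in the remaining clusters (log2 1.73, 0.65 to 2.91), with 2.57 CPM in the Calb1 cluster and 1.08 CPM in the Kcnk13 cluster. In A the Slco2a1 cells differed between sets, at 72.8 CPM in A1 (12 UMIs), 136 CPM in A2 (24 UMIs) and 20.7 CPM in A3 (90 UMIs), and the interval of A3, 16.7 to 25.5 CPM, was below both of the others. This is unlike Npnt, which was level across the same cells.

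One small cluster held both genes at high levels. It had 54 cells of ending A, 25 from A1, 25 from A2 and 4 from A3, and was led by Igfbp3, P2rx1, Col18a1 and Aldh1a3. Itga8 was at 302 CPM (252 to 360), the highest of all clusters, and Npnt at 174 CPM (136 to 218), second in ending A to the Slco2a1 cluster among clusters of at least 50 cells. Itga8 was at 254 CPM in its A1 cells and 348 CPM in its A2 cells, and Npnt at 157 and 200 CPM. Itgb1, at 1328 CPM, and Itgav, at 195 CPM, were also highest there among clusters of that size. Both Npnt and Itga8 were found in 23 of the 54 cells (42.6%, 29.2 to 56.8), and no cell gave more than 10 of its 73 Npnt UMIs or more than 10 of its 127 Itga8 UMIs. Smooth muscle markers summed to 2147 CPM in it, above the 809 to 1701 CPM of the sets of A, and Pdgfra was at 95.2 CPM. Acta2, at 838 CPM, and Myh11, at 66.6 CPM, were inside the range of the other clusters of A. Of the 7 smooth muscle markers, 1 was at least 4-fold above the other cells of the same sets. No cluster of ending B was led by these genes. The highest Itga8 in B was 38.0 CPM in a cluster of 78 cells led by Gdf10, in which Npnt was at 10.0 CPM.

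The remaining chains were compared by class. Itga1 was at 202 CPM in PDGFRA-high cells against 48.2 CPM in other mesenchyme of A and at 138 against 48.5 CPM in B, and it was higher in each of the 6 sets, by log2 0.80 in B3 to 2.22 in A2. Itgav was at 89.1 against 48.3 CPM in A and 79.7 against 47.3 CPM in B, but within B1 and B3 its log2 ratios of 0.24 (-0.18 to 0.63) and 0.15 (-0.18 to 0.50) were within counting error. Itgb8 was at 54.2 against 13.4 CPM in A and 40.1 against 12.1 CPM in B. The Itgb8 ratio was log2 1.41 to 2.09 in 5 sets and 0.44 (-0.07 to 0.99) in B3. Itgb1 was 1.48-fold and 1.21-fold higher in the PDGFRA-high class, and Itgb5 and Itga5 differed by at most 1.20-fold. Itga4 was low but uneven: it reached 20.9 and 21.3 CPM in a pair of clusters of A led by Col6a5 and Lepr, 21.4 CPM in the Igfbp3 cluster and 17.7 CPM in the Slco2a1 cluster, whereas 9 of the 15 clusters of A with at least 50 cells stayed under 5 CPM.

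Among PDGFRA-high clusters, Itgb8 and Itga11 lay opposite to Npnt. Itgb8 was at 32.9 CPM in the Slco2a1 cluster against 82.6 CPM in the remaining clusters of A, and at 27.9 against 48.1 CPM in B. Itga11 was at 15.4 against 75.5 CPM in A and at 16.03 against 56.4 CPM in B. Itga2 had its highest level in the Slco2a1 cluster, at 218 against 109 CPM in A and 158 against 97.4 CPM in B. Itgb1 did not separate these clusters, at 999 against 977 CPM in A and 724 against 741 CPM in B, with the log2 ratio between -0.03 and 0.10 in A and between -0.10 and 0.04 in B.

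Across the 15 clusters of A and 11 of B with at least 50 cells, the genes closest to Npnt by the lower of 2 Pearson r values on log2(CPM + 10), out of 7245 genes, were Slco2a1 (r 0.95 in A and 0.98 in B), Spock3 (0.97 and 0.94), Tnfrsf19 (0.94 and 0.98), Tbx3os1 (0.93 and 0.95) and Bmpr2 (0.92 and 0.93). Tnfrsf19 and Bmpr2 encode receptors, the latter for BMP ligands. Of the members, Itgav (0.69 and 0.78), Itgb1 (0.61 and 0.68) and Itga1 (0.60 and 0.81) came closest to Npnt, and Itga8 gave 0.25 and -0.45. The genes closest to Itga8 were Clmp (0.86 and 0.86), Gm19426, Rab8a, Fer and Nrp1, the last with 0.72 and 0.73. The clusters share libraries and depth, and in A the single Igfbp3 cluster weighs on every r with Itga8, so these values are descriptions with no test.

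In single cells at 2000 UMIs, whether Npnt and Itga8 coincided depended on which cells were compared. Over all kept cells of A, Itga8 had a UMI in 36 of 589 Npnt-positive cells (6.11%) and in 6.42% of Npnt-negative cells, a difference of -0.31 points (-2.12 to 2.01). Over all cells of B the shares were 1.43% and 1.79%, a difference of -0.36 points (-1.07 to 0.74). Neither pooled difference was beyond counting error at that depth. At 5000 UMIs, which left out 184 cells of A, the pooled difference in A was -3.87 points (-6.21 to -1.19). At 3000 UMIs, which left out 953 cells of B, it was -1.32 points (-2.17 to -0.07) in B. Within the PDGFRA-high class, Itga8 was found in 5.46% (3.69 to 7.75) of Npnt-positive cells of A and 1.03% (0.38 to 2.22) of Npnt-negative cells, 4.44 points apart (2.41 to 6.77). In B the shares within the class were 1.44% and 0.61%, 0.83 points apart (0.05 to 1.98), from 11 and 12 cells. Within the class the difference kept its direction at every depth tried, at 2.21 to 5.91 points in A and 0.80 to 1.07 points in B, and at 3000 UMIs in B its interval reached -0.12.

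The same comparison was made inside the clusters. Within the Slco2a1 cluster of A, Itga8 was found in 28 of 510 Npnt-positive cells (5.49%) and 2 of the 203 Npnt-negative cells (0.99%), and 23 of those 28 cells were from A3. Within the Slco2a1 cluster of B the difference was 0.88 points (-0.61 to 2.39). In the remaining PDGFRA-high clusters of B, 0 of 159 Npnt-positive cells had Itga8, which allows a share of cells with a UMI of up to 1.89%, taking 3 counts as the limit of a count of 0, here and below. Within A3 alone the PDGFRA-high shares were 4.87% and 1.13%, and within B3 alone 1.02% and 0.65%. In other mesenchyme of A, 6 of 46 Npnt-positive cells had Itga8 (13.0%, 4.94 to 26.3) against 6.92% of Npnt-negative cells. The Igfbp3 cluster, which belongs to that class, held 12 of those 46 cells and all 6 with both genes. In other mesenchyme of B the difference was -1.02 points (-2.25 to 4.91). Over all cells of A2, 9 of 41 Npnt-positive cells had Itga8 (22.0%) against 7.59% of Npnt-negative cells, whereas in A1 the shares were 6.38% (3 of 47) and 6.47%. Unthinned, 76 of the 715 Slco2a1 cells of A (10.6%) and 17 of the 1139 in B (1.49%) held both genes. Thinning left out 6 cells of A and 35 of B that had fewer than 2000 UMIs.

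**Figure D4:**
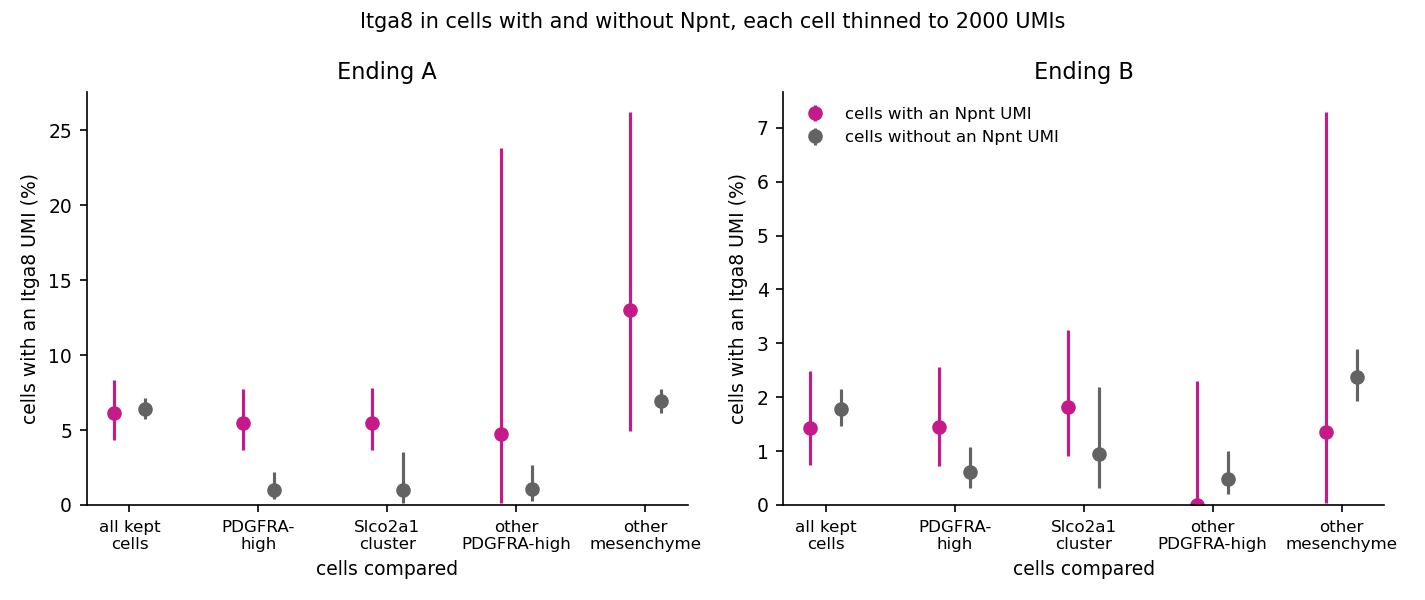
Percentage of cells with an Itga8 UMI among cells with and without an Npnt UMI, each cell thinned to 2000 UMIs, with exact 95% binomial intervals; the vertical scales differ between endings. Over all kept cells the 2 groups overlap (6.11% and 6.42% in A), whereas in the PDGFRA-high class of A they do not (5.46% and 1.03%).

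Itgb1 was nearly everywhere and so carried little contrast. Over all cells of A it was found in 85.9% of Npnt-positive and 74.2% of Npnt-negative cells, 11.7 points apart (8.41 to 14.5). Over all cells of B the difference was 2.47 points (-0.82 to 5.58), within counting error. Within the PDGFRA-high class the shares were 86.3% and 86.8% in A, a difference of -0.59 points (-4.64 to 3.42), and 74.1% and 74.9% in B, a difference of -0.74 points (-4.47 to 2.83). Inside that class Itgb8 had a UMI in 5.46% of Npnt-positive and 12.6% of Npnt-negative cells of A (-7.19 points, -10.6 to -3.85) and in 5.25% and 8.27% of those of B (-3.02 points, -4.91 to -0.87). Within the Slco2a1 cluster alone the Itgb8 difference was -3.57 points (-8.56 to 0.35) in A and 0.00 points (-2.72 to 2.64) in B. Itga1, found in 32.1% of Npnt-positive and 11.7% of Npnt-negative cells over all of A, differed by 2.86 points (-2.66 to 8.38) within the class.

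Npnt also went with Pdgfra cell by cell. In A1 and A2 together, 1.30% of cells with no Pdgfra UMI had Npnt, 2.05% of cells with 1, 6.38% of cells with 2 and 22.2% (12.7 to 34.5) of the 63 cells with 3 or more. In A3 the shares were 26.7%, 40.2%, 40.5% and 56.1%. In B1 and B2 they were 3.00%, 62 of 689 cells, 23.0% and 36.7%, and in B3 they were 23.4%, 27.3%, 36.8% and 41.3%. The highest bin exceeded the lowest in each of the 4 groups with no overlap of intervals. Itga8 was not higher in cells with more Pdgfra in A3, where the shares of the first and the last bin were 6.49% and 2.51%, or in B1 and B2, where 2.34% of cells with no Pdgfra UMI had it and 0 of 60 cells with 3 or more, which allows up to 5% of cells with a UMI. In B3 it was in 1.45% of cells with no Pdgfra UMI and in 0 of 150 cells with 3 or more, which allows up to 2% of cells with a UMI. In A1 and A2 the Itga8 shares were 6.59%, 8.44%, 11.2% and 6.35%, with overlapping intervals between the first and the last. Pdgfra also marks the class and stands behind the sort, so these shares describe the same cells in another way.

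**Figure D5:**
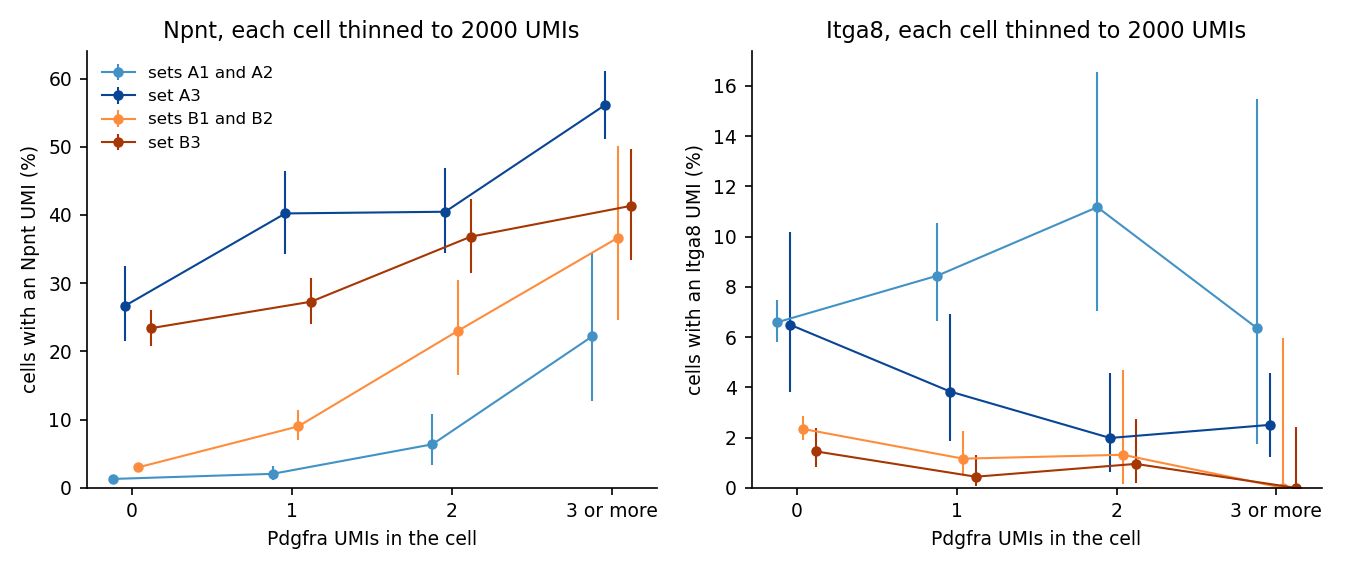
Percentage of cells with an Npnt UMI (left) and with an Itga8 UMI (right) by the number of Pdgfra UMIs in the cell, each cell thinned to 2000 UMIs, with exact 95% binomial intervals. Npnt is at 22.2% in A1 and A2 and 56.1% in A3 at 3 or more Pdgfra UMIs, and Itga8 is at 0 of 60 cells in B1 and B2 and 0 of 150 cells in B3.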

How the data were processed

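Single-cell 3′ RNA libraries of mouse fetal small intestine were analysed from the UMI count matrix the authors deposited, with its gene and barcode lists. Per the submitters' processing notes, mm10, Cell Ranger 2.1.1 and Seurat were used; the sources used here do not say how suffixes map to samples or which cells were filtered before deposit. Cells with at least 1000 genes and at most 5% mitochondrial UMIs were kept, and 60 called doublets (0.457%, Scrublet in scanpy 1.11.5) were removed; that caller marked only 0.404% of ending A, so doublets may remain there.

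Counts were summed per set or cluster and given as CPM with exact Poisson intervals, ratios with intervals from the exact conditional binomial, shares with Clopper-Pearson intervals and differences of shares with Newcombe intervals, all at 95% and for counting error only. The ratios and their intervals were tried on simulated Poisson counts, which is the model the intervals assume. That trial says nothing of variation between cells or libraries. No cell can be assigned to a sample, so the sets are technical sets without replicates and no test was made. Background shares use genes with at least 20 CPM on 1 side. For co-detection each cell was thinned to 2000 UMIs. Leiden clustering (resolution 1, 2000 variable genes, 30 components, 15 neighbours) left out the members and pathway lists. PDGFRA-high clusters had at least 3 of 9 markers 2-fold above the other cells of the ending. The rule that compares lineage markers within sets was chosen after the data were seen. Compared with the whole ending instead, the Slco2a1 cluster of A had 7 epithelial markers past 4-fold and would have stayed unnamed. The rule for named genes took all 10 members, the extremes and the 2-fold genes of 3 pathway lists, and the 5 genes most like Npnt and Itga8; Pdgfra, cluster-leading genes, Fn1, Mfge8, Fbln5, Egfl6, Vtn, Spp1, Emilin1, Thbs1, Vcl and Lpp were named after their values were seen. The members and lists were chosen with earlier results of these data known. Ending A uses the symbols Ccn1 and Ccn2 and ending B the older Cyr61 and Ctgf. Sequences are from GENCODE M21 transcripts, and gene positions from RefSeq (GRCm38.p6).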

Additional observations from a re-analysis of the deposited data

How the results depend on the processing

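No paired analysis was possible because cells cannot be assigned to samples and no comparison had replicates; leaving out a replicate could not be run either. Alternatives chosen after seeing the data were keeping called doublets, thinning to 5000 UMIs and all other depths within PDGFRA-high cells. The log2 ratio of set 3 over sets 1 and 2 kept its direction under every alternative run for Npnt and Itga8. For Npnt in A it was 4.96 after thinning and 4.99 as a mean of per-cell CPM. For Npnt in B it was 3.11 against set 1 alone, 2.78 against set 2 alone, 2.62 after thinning and 2.69 as a mean of per-cell CPM. For Itga8 in A it was -0.96 after thinning. Itga5 in A, near 0, turned to 0.0023 against set 2 alone and to 0.084 after thinning. Of 112 alternatives for the other members, 105 moved by less than counting error, 5 moved by more and those 2 changed sign.

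The Itga8 share difference in A was 0.20 points at 1000 UMIs and -3.87 at 5000 UMIs. In A it was 4.44 within the PDGFRA-high class and 6.13 (-0.85 to 18.8) within other mesenchyme. In B it was 0.38 at 1000 UMIs, -1.32 at 3000 UMIs, -1.02 within other mesenchyme and 0.83 within the PDGFRA-high class. Within the class in A it was 2.21 at 1000 UMIs. The Itgb1 share difference in A was 6.22 points at 3000 UMIs, 3.64 at 5000 UMIs, -0.59 within the PDGFRA-high class and 15.7 within other mesenchyme, against -0.74 and -2.93 for the same classes of B. The cause was not tested. Genes past 2-fold numbered 1134 in A and 899 in B; with at least 5 CPM they were 2114 and 1660, with at least 50 CPM 622 and 464, and at 1.5-fold 2453 and 2066, as the thresholds set. At Leiden resolution 2 the Npnt class ratio in B was 3.38 instead of 4.82, and the remaining class ratios moved by less than counting error between cluster settings. Depth limits Itga8 and Itga4 in B, with 41 and 32 UMIs in B3, and no value separates sorting, age or embryo from the sets.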
